A study of Mus musculus with 4 samples.

Results

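The E proteins *Tcf3*, *Tcf4* and *Tcf12* and the Id inhibitors *Id1*, *Id2*, *Id3* and *Id4* were followed across the cell classes of the postnatal mouse forebrain. The 7 genes were chosen by name, as the E protein and Id genes of the 32285 genes in the matrices, and all 7 had UMIs (unique molecular identifiers, tags that mark captured transcript molecules) in every library. The study profiled tdTomato-positive cells sorted at postnatal day 5 with 10x Genomics Chromium 3′ v3.1 single-cell RNA sequencing and compared *Chd8* control with *Chd8* mutant mice. The series held 2 libraries per genotype, each prepared from cells of 3 pooled mice.

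Control mice were NestinCreERT2/tdTomato/Chd8+/+ and mutant mice were NestinCreERT2/tdTomato/Chd8+/F, all labelled as strain C57BL/6. According to the methods of the study, all were given tamoxifen in the fetal period. The Cre recombinase thus acts in cells that expressed Nestin when tamoxifen was given, and in the mutants it removes the floxed part of 1 *Chd8* allele while the other allele stays intact. Because mice were pooled, the library was the replicate, and p-values measure only the spread between libraries.

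E proteins are basic helix-loop-helix (bHLH) transcription factors that bind the E-box motif CANNTG as dimers, often with a tissue-restricted bHLH partner such as Neurod1 or Olig2. Id proteins have the helix-loop-helix but lack the basic DNA-binding region, so they hold E proteins in dimers that cannot bind DNA. Id genes are known targets of BMP signalling through SMAD proteins and are known for keeping neural progenitors and astrocytes from neuronal differentiation.

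Bases upstream of the start are shown for *Id2*, *Id4* and *Tcf3*. These genes were chosen because they had an entry in the promoter table and were highest in different classes. The classes were astrocytes, subventricular stem-like cells and dividing inhibitory neuron progenitors. The sequences come from RefSeq on GRCm38.p6, which had an entry for 5 of the 7 members. They are written 5′ to 3′ on the strand of the gene, with annotated exons left out. E-boxes (CANNTG, which reads the same form on both strands) are in capitals. The 161 bases next to the start of *Id2* and the 12 next to that of *Tcf3* lay in annotated exons. The printed *Id2* and *Tcf3* stretches therefore lie further upstream and do not adjoin the start.
*Id2*, chr12:25096254-25096342, minus strand: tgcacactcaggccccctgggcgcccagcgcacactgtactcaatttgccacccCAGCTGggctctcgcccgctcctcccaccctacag
*Id4*, chr13:48260866-48261115, plus strand: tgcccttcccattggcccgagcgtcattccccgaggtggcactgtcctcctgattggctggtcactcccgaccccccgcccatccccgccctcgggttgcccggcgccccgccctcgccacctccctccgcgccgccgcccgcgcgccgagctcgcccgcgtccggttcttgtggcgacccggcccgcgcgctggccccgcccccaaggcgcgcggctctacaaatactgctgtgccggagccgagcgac
*Tcf3*, chr10:80433648-80433885, minus strand: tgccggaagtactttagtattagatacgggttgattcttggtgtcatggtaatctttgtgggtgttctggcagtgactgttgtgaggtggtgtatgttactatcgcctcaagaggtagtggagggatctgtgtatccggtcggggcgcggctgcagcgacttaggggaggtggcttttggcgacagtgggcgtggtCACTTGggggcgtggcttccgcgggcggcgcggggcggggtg

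The 89 bases of *Id2* held 1 E-box (CAGCTG) and lay within an intron of a longer annotated *Id2* transcript. The 238 bases of *Tcf3* held 1 E-box (CACTTG) and the 250 bases of *Id4* held none. Windows of 89, 238 and 250 bases held a CANNTG in 33.0%, 64.6% and 66.0% of 27025 RefSeq promoters, and CAGCTG, which is one form of CANNTG, in 4.17% of the 89-base windows. GGCGCC, a GC-rich element known from BMP-responsive regions of Id genes, was found 1 time each in the *Id2* and *Id4* stretches and in 2.69% and 9.54% of windows of 89 and 250 bases. GC content was 67.4% for *Id2*, 75.6% for *Id4* and 58.4% for *Tcf3*. A match describes letters and does not show binding.

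Of 27742 barcodes, 17623 passed the filters on cells (8683 control, 8940 mutant), with median UMI counts of 11497 to 11837.5 per library and 37355364 to 73584401 UMIs in all per library. The study states nearly the same numbers after its own filters. The cells fell into 35 clusters, clustered without the members and their bHLH partners, and 32 of these were named from marker genes into 17 classes, each name standing for cells like that type. The remaining 3 clusters (809 cells) stayed unnamed, and 16 classes had at least 50 cells. Although GEO labels the cells as neuronal, the classes included glia, vascular cells and immune cells. Libraries of replicate 1 were produced with Cell Ranger 7.0.0 and those of replicate 2 with 5.0.1, and 10 clusters held over 90% of their cells from 1 replicate. The study states that male mice were used for this assay. *Xist*, the RNA made from the inactive X chromosome of female cells, was at 0.149 and 0.153 CPM (counts per 1e6 UMIs) in control and mutant replicate 1 and at 1633 and 1749 CPM in control and mutant replicate 2, which goes against that statement for replicate 2. The libraries shared 39 barcodes among kept cells. *Chd8* was counted at 61.7 and 89.8 CPM in control and 68.7 and 94.9 CPM in mutant replicates 1 and 2, and since 3′ reads need not cover the floxed part, this does not check the genotype.

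Over all kept cells, *Tcf4* and *Tcf12* were counted lower in replicate 2 than in replicate 1, by more than any other member in the same genotype. *Tcf4* has 318342 intronic bases and was at 2018 and 1123 CPM in control replicates 1 and 2 and at 2023 and 1339 CPM in mutant replicates 1 and 2. *Tcf12*, with 253655 intronic bases, was at 326 and 155 CPM in control and 328 and 165 CPM in mutant replicates 1 and 2. The log2 difference of replicate 2 over replicate 1 was -0.84 (control) and -0.60 (mutant) for *Tcf4* and -1.06 and -0.98 for *Tcf12*. It lay between -0.57 and 0.23 for *Tcf3* and the Id genes, which have 0 to 20095 intronic bases (those outside the exons of all annotated transcripts). Over all genes the median was 0.28 in control and 0.37 in mutant libraries for those with under 2 kb of introns, and -1.58 and -1.68 for the 907 genes with over 200 kb. Within classes, some Id genes also differed between replicates. The mean CPM in replicates 1 and 2 was 670 and 413 for *Id1* in astrocytes and 302 and 141 for *Id2* in OPCs. For *Id4* in astrocytes it was 253 and 254. Software version, *Xist* level and replicate cannot be told apart, so levels of all members are best read within a replicate.

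**Figure D1:**
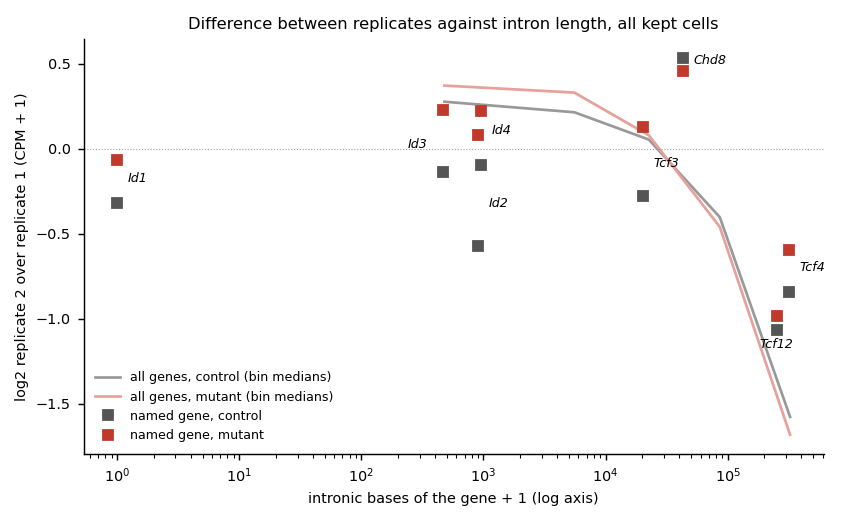
Log2 difference of replicate 2 over replicate 1 (CPM over all kept cells) for each member and for all genes by intronic length, for control and mutant libraries. *Tcf12* (-1.06 and -0.98) and *Tcf4* (-0.84 and -0.60) lie below the other members, and genes with over 200 kb of introns have medians of -1.58 and -1.68.

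Each member had its own distribution over the classes. Among E proteins, *Tcf4* was highest in the excitatory lineage, *Tcf12* in the oligodendrocyte lineage, where the spread of the replicates covers most other classes, and *Tcf3* in dividing inhibitory neuron progenitors, excitatory precursors and endothelial cells. Among Id genes, *Id1* and *Id3* were highest in astrocytes, *Id2* in astrocytes and excitatory neurons, and *Id4* in subventricular stem-like cells. Levels below are CPM of counts summed over the cells of a class, given as the mean ± SD of the 4 libraries or in the order control replicates 1 and 2, mutant replicates 1 and 2. They compare a gene between classes and not genes with each other.

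*Tcf3* encodes the E2A proteins E12 and E47 (ENSMUSG00000020167, mm10 chr10:80409514-80433647, minus strand). It was at 130 ± 21.5 CPM in dividing inhibitory neuron progenitors (121, 108, 132 and 159 in the 4 libraries) and at 115 ± 19.3 CPM in excitatory precursors (114, 91.1, 115 and 138). Endothelial cells followed with 106 ± 19.4 CPM and dividing astrocyte progenitors with 90.4 ± 17.4 CPM. These 4 classes overlapped with their neighbours in the order, and the lowest of the classes with at least 50 cells, border macrophages, lay at 29.8 ± 5.88 CPM, below all of them in every library.

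*Tcf4* encodes E2-2, the E protein whose human counterpart is mutated in Pitt-Hopkins syndrome (ENSMUSG00000053477, mm10 chr18:69343356-69689079, plus strand). It was at 4617 ± 533 CPM in excitatory neurons (4544, 4017, 5314 and 4594) and at 4616 ± 758 CPM in excitatory precursors (5179, 3527, 5082 and 4677). Inhibitory neurons had 2585 ± 658 CPM (3150, 1864, 3135 and 2191). The first pair of classes did not differ beyond the spread, and both lay above inhibitory neurons with no overlap. Microglia were lowest with 439 ± 279 CPM (518, 252, 798 and 188). After thinning each cell to 2000 UMIs, a *Tcf4* UMI was found in 99.4% of excitatory neurons and in 45.5% of microglia (100% and 85.1% without thinning), with median depths of 9776.5 and 10925.5 UMIs.

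*Tcf12* encodes HEB (ENSMUSG00000032228, mm10 chr9:71842688-72111871, minus strand). It was at 382 ± 83.9 CPM in oligodendrocytes (460, 301, 449 and 318), 341 ± 84.7 CPM in oligodendrocyte precursor cells (OPCs; 421, 259, 406 and 276) and 147 ± 86.3 CPM in microglia, the lowest class. Neighbours in the order overlapped throughout, and within each library oligodendrocytes lay above OPCs and OPCs above microglia.

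*Id1* (ENSMUSG00000042745, mm10 chr2:152736251-152737410, plus strand) has annotated exons that, merged over its transcripts, cover the whole gene. It was at 542 ± 151 CPM in astrocytes (702, 398, 639 and 428), 478 ± 126 CPM in dividing astrocyte progenitors and 467 ± 177 CPM in endothelial cells (614, 308, 626 and 321). These 3 classes overlapped. At 2000 UMIs per cell, 54.3% of 3980 astrocytes held an *Id1* UMI (95% Clopper-Pearson interval 52.7% to 55.9%, which covers counting error alone), against 1.41% of inhibitory neurons and 2.33% of excitatory neurons. *Aldoc*, an astrocyte enzyme that neurons should lack, was found in 2.19% and 2.65% of these neurons and 77.1% of astrocytes. Other genes found in nearly all astrocytes had larger shares, *Slc1a3* with 22.2% and 18.6% and *Apoe* with 21.8% and 22.1% of these neurons. The endothelial gene *Cldn5* was found in 0.0742% of inhibitory and 0.106% of excitatory neurons. The neuronal *Id1* shares thus lay below those of *Aldoc*, *Slc1a3* and *Apoe* and above that of *Cldn5*. Whether they are background was not tested. Without thinning, the *Id1* shares were 88.1%, 4.38% and 8.16%, at median depths of 14254, 6236 and 9776.5 UMIs.

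*Id3* (ENSMUSG00000007872, mm10 chr4:136143497-136145755, plus strand) was highest in the 2 astrocyte classes. It was at 1887 ± 380 CPM in astrocytes (2339, 1486, 2046 and 1678), 1312 ± 212 CPM in dividing astrocyte progenitors (1530, 1158, 1456 and 1104), 765 ± 165 CPM in fibroblasts and 477 ± 80.0 CPM in endothelial cells. Fibroblasts lay below the 2 astrocyte classes and above endothelial cells in all libraries with no overlap, while the astrocyte classes overlapped each other. Inhibitory neurons were lowest with 25.7 ± 8.15 CPM (17.9, 22.4, 25.6 and 37.0).

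*Id2* (ENSMUSG00000020644, mm10 chr12:25093799-25097140, minus strand) was the Id gene with high levels in excitatory neurons. It was at 953 ± 246 CPM in astrocytes (1201, 633, 1077 and 901) and at 794 ± 57.7 CPM in excitatory neurons (737, 752, 833 and 853), which overlapped. Excitatory precursors had 416 ± 51.6 CPM, below excitatory neurons in every library, and mural cells were lowest with 30.6 ± 21.8 CPM. At 2000 UMIs per cell, 74.2% of astrocytes and 63.1% of excitatory neurons held an *Id2* UMI (95.9% and 82.7% without thinning). The share of excitatory neurons lay above those of *Aldoc* (2.65%), *Slc1a3* (18.6%) and *Apoe* (22.1%) in that class.

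*Id4* (ENSMUSG00000021379, mm10 chr13:48261228-48266026, plus strand) was highest in cells of the ventricular wall. It was at 626 ± 56.2 CPM in subventricular stem-like cells (629, 570, 603 and 703), 430 ± 13.5 CPM in ependymal cells (416, 425, 434 and 447), 254 ± 32.3 CPM in astrocytes (261, 216, 245 and 293) and 157 ± 25.7 CPM in inhibitory neurons (146, 195, 137 and 149). The first 3 of these classes did not overlap with the next, while inhibitory neurons overlapped with dividing astrocyte progenitors (153 ± 5.39 CPM). It was at 3.49 ± 4.24 CPM in endothelial cells, where 2 of 166 cells held a UMI at 2000 UMIs per cell.

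**Figure D2:**
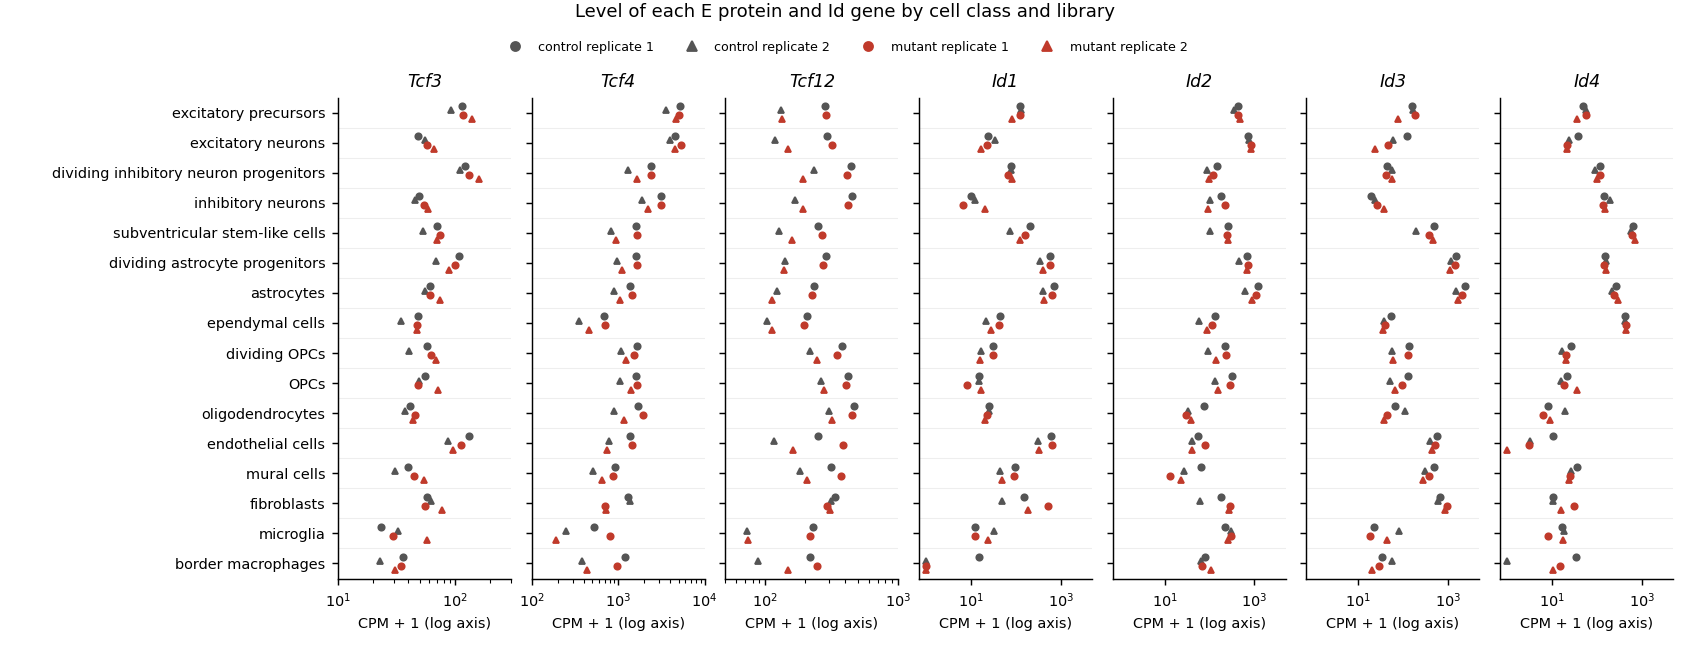
CPM of the 7 members in the cell classes, with a point for each of the 4 libraries. *Tcf4* peaks in excitatory classes near 4617 CPM, *Id3* in astrocytes at 1887 CPM and *Id4* in subventricular stem-like cells at 626 CPM.

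Summed over members, the balance of Id to E protein UMIs separated astrocytes from neurons. Astrocytes had 2.69, 2.58, 2.32 and 2.65 Id UMIs per E protein UMI in control replicates 1 and 2 and mutant replicates 1 and 2, and dividing astrocyte progenitors had 1.48, 1.80, 1.43 and 1.76. Inhibitory neurons had 0.0975, 0.159, 0.108 and 0.122 and oligodendrocytes had 0.0761, 0.147, 0.0408 and 0.0661. The ratio was over 1 in every library of both astrocyte classes and under 0.2 in every library of inhibitory neurons and oligodendrocytes. It was also under 0.2 in every library of dividing inhibitory neuron progenitors (0.116 to 0.191) and excitatory precursors (0.134 to 0.187). Excitatory neurons had 0.189, 0.207, 0.162 and 0.190 in the same order of libraries. Levels do not compare genes with each other, so the ratio is read between classes and 1 is only a mark. A ratio over 1 was not particular to astrocytes. It was 2.72, 6.95, 7.18 and 8.50 in the 25 choroid plexus cells, in the same order of libraries. Microglia had 1.22 and 1.08 in control and mutant replicate 2, but 0.356 and 0.325 in replicate 1. Fibroblasts had 1.70 and 1.20 in mutant replicates 1 and 2. Subventricular stem-like cells had 1.33 in mutant replicate 2 and ependymal cells 1.11 in control replicate 2. The other libraries of these last classes, fibroblasts included, were under 1. Since *Tcf4* and *Tcf12* were counted lower in replicate 2, the ratios are best compared within a replicate.

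Over the 16 classes, described by the correlation of mean log2(CPM + 1), *Id1* and *Id3* were the most alike pair of members (r = 0.86), followed by *Tcf3* and *Id1* (r = 0.69) and *Tcf3* and *Tcf4* (r = 0.55). Among 12134 genes at 20 CPM or more in some class, the gene most like *Id1* was *Pcx* (r = 0.93), that most like *Id3* was *Selenom* (r = 0.91) and that most like *Id2* was *Azin1* (r = 0.79). *Sox1ot* was most like *Id4* (r = 0.94), with *Sox1* close behind (r = 0.92), *Sox1* being a transcription factor of neural progenitors. *Zfp148* and *Rcor2* were most like *Tcf4* (both r = 0.93), *Tfdp2*, a partner of E2F factors, most like *Tcf3* (r = 0.87) and *G0s2* most like *Tcf12* (r = 0.89). The points share libraries and depth.

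Some members also varied between clusters of 1 class. The following clusters were picked after their values were seen, so no test is given. In 392 inhibitory neurons led by *Epha6*, *Cdh8*, *Rarb*, *Foxp2* and *Bcl11b*, genes known from striatal projection neurons, *Tcf4* was at 715, 248, 682 and 355 CPM in control replicates 1 and 2 and mutant replicates 1 and 2. The other 4 inhibitory clusters had 2367 to 4147 CPM over all their cells. Among astrocytes, the 875 cells of the cluster with high *Gfap* had 3010 CPM of *Id3*, 850 CPM of *Id1* and 478 CPM of *Id4*, the highest of the 4 astrocyte clusters for each. Dividing inhibitory neuron progenitors fell into 822 cells led by histone genes, with *Id1* at 86.4 CPM, and 322 cells led by *Dlx1as*, *Dlx2* and *Insm1*, with *Id1* at 17.7 CPM.

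Next, members were compared between a dividing or precursor class and its resting or mature counterpart in the same libraries (edgeR quasi-likelihood test with the library as a block, Benjamini-Hochberg adjustment over all genes tested). The classes were defined from other genes of the same cells. In dividing astrocyte progenitors against astrocytes, *Tcf3* and *Tcf12* rose and 3 of 4 Id genes fell, and *Tcf4* was called higher by a small difference. *Tcf3* was at 90.4 ± 17.4 against 61.9 ± 8.25 CPM and rose by a log2 difference of 0.56 (SE 0.09, adjusted p = 0.000187). *Tcf12* rose by 0.31 (SE 0.06, adjusted p = 0.000825). *Tcf4* was higher by 0.18 (SE 0.06, adjusted p = 0.0343), a call that was lost on leaving out any 1 of the 4 libraries (0.15 to 0.19). *Id4* was at 153 ± 5.39 against 254 ± 32.3 CPM and fell by 0.69 (SE 0.08, adjusted p = 1.27e-05), *Id2* fell by 0.54 (adjusted p = 0.000239) and *Id3* by 0.49 (adjusted p = 0.000144). For *Id1* the log2 difference was -0.15 (SE 0.06, adjusted p = 0.0599). Each of the 7 differences had 1 sign in all 4 libraries. Such calls were common, since 53.1% of 14378 genes passed the test, and the median log2 difference over all genes was -0.02.

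Compared with inhibitory neurons, dividing inhibitory neuron progenitors had more *Tcf3*, *Id1* and *Id3* and less *Tcf4*, *Id2* and *Id4*. *Id1* was at 77.4, 76.5, 67.3 and 81.0 CPM in the progenitors of control replicates 1 and 2 and mutant replicates 1 and 2 and at 8.95, 11.2, 5.50 and 20.1 CPM in the neurons. It rose by 2.97 on the log2 scale (SE 0.17, adjusted p = 2.08e-12), and the classes did not overlap. *Tcf3* rose by 1.36 (SE 0.10, adjusted p = 9.92e-11), with 1.28 to 1.45 in the 4 libraries taken singly. *Id3* was at 49.2 ± 8.23 against 25.7 ± 8.15 CPM and rose by 0.97 (SE 0.13, adjusted p = 2.07e-06). *Tcf4* fell by 0.41 (SE 0.08, adjusted p = 0.000122), *Id4* by 0.48 (adjusted p = 0.00121) and *Id2* by 0.40 (adjusted p = 0.00811). The *Id2* difference was negative in 3 of 4 libraries and lost its call without mutant replicate 1 (-0.21). For *Tcf12* the log2 difference was 0.10 (adjusted p = 0.393). Of 13515 genes 64.2% passed. At 2000 UMIs per cell *Id1* was found in 9.97% of progenitors and 1.41% of neurons (35.6% and 4.38% without thinning, median depths 15225.5 and 6236 UMIs). *Aldoc* was found in 2.19% of each, *Slc1a3* in 36.4% of progenitors and 22.2% of neurons, and *Apoe* in 26.4% and 21.8%. The summed level of the 10 astrocyte markers, all detected in every library, was 825 to 1305 CPM in the progenitors and 268 to 544 CPM in the neurons, and its part in the *Id1* and *Id3* differences was not tested. With clusters at a resolution of 2, the *Id3* difference was -0.13. Over all its cells, the progenitor cluster led by histone genes had *Id3* at 50.8 CPM and *Id4* at 98.2 CPM. The progenitor cluster led by *Dlx1as*, *Dlx2* and *Insm1* had *Id3* at 17.4 CPM and *Id4* at 180 CPM. *Id1* was at 94.7 and 79.7 CPM in the histone-led cluster of control and mutant replicate 1. In the other progenitor cluster it was at 9.34 and 15.4 CPM, beside 8.95 and 5.50 CPM in the neurons of these libraries. The class differences of *Id1*, *Id3* and *Id4* therefore do not describe both progenitor clusters alike. The neuron clusters were also unlike. Over all cells, *Tcf4* was at 2197 and 2389 CPM in the progenitor clusters. It was at 643 CPM in the neuron cluster led by *Epha6* and at 2367 to 4147 CPM in the other neuron clusters. *Id2* was at 119 and 146 CPM in the progenitor clusters and 63.7 to 291 CPM in the neuron clusters, where *Id4* was at 58.8 to 226 CPM. The falls of *Tcf4*, *Id2* and *Id4* therefore do not hold against every neuron cluster.

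In dividing OPCs against OPCs, *Id1* was at 30.6, 15.8, 30.2 and 15.3 CPM in the dividing cells and at 14.3, 14.1, 7.0 and 15.9 CPM in the resting cells, in the same order of libraries. It was called higher (log2 difference 1.06, SE 0.23, adjusted p = 0.000709), with higher values in both libraries of replicate 1 and nearly equal ones in replicate 2, and was at 0.54 without mutant replicate 1. *Id2* fell by 0.30 (SE 0.07, adjusted p = 0.00325) and was lower in 4 of 4 libraries. *Id3* was called higher by 0.23 (adjusted p = 0.0489), which was lost without control replicate 1, control replicate 2 or mutant replicate 1 (0.24, 0.23 and 0.05), and the E proteins and *Id4* did not pass the test. The share of all genes that passed was 35.8% of 12861. Of these calls 53.8% were higher with TMM scaling and 40.1% with library totals alone. The *Id1* and *Id3* calls did not hold in clusters of a resolution of 2 (-0.11 and -0.54). At 2000 UMIs per cell, *Id1* was found in 4.19% of dividing OPCs and 2.30% of OPCs, while genes of other cell types gave no single background share, with the endothelial *Cldn5* in 0.161% and 0.206% and *Aldoc* in 3.54% and 10.7%.

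Oligodendrocytes against their precursors gave the largest fall of *Id2* among the 6 comparisons. It was at 73.1, 31.8, 29.7 and 38.3 CPM in oligodendrocytes and at 321, 130, 283 and 153 CPM in OPCs, and fell by 2.28 on the log2 scale (SE 0.18, adjusted p = 5.05e-08). Every oligodendrocyte value lay below every OPC value. *Id4* fell by 1.17 (SE 0.25, adjusted p = 0.00116), being lower in 3 of 4 libraries. *Tcf12* rose by 0.38 (SE 0.07, adjusted p = 0.000312), *Tcf4* was called higher by 0.19 (adjusted p = 0.0280) although its CPM ratio was below 1 in both libraries of replicate 2, and *Id1* was called higher by 1.16 (adjusted p = 0.000115), at 22.8 ± 2.11 against 12.8 ± 3.98 CPM. The *Tcf4* call was lost without control replicate 1 (0.17) or mutant replicate 1 (0.11), and the *Id1* call in clusters of a resolution of 2 (0.18). Library totals alone, in place of TMM scaling, moved the median of all genes by -0.20 and the share of calls that were higher from 47.7% to 30.7%. *Tcf4* was then at -0.03 and *Tcf12* at 0.17, neither called, while relative to the median they were at 0.20 and 0.40, against 0.23 and 0.42 with TMM. For *Id3* the difference was -0.46 (SE 0.24, adjusted p = 0.125), and it was -1.05 (adjusted p = 3.30e-05) without the 5% of cells with the highest Scrublet doublet scores. Of 13036 genes 57.1% passed.

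Excitatory neurons against excitatory precursors showed *Id2* moving against the other Id genes. *Id2* was at 737, 752, 833 and 853 CPM in the neurons and at 422, 347, 425 and 472 CPM in the precursors, and rose by 0.99 (SE 0.08, adjusted p = 8.11e-09), with no overlap. *Id1* was at 23.2, 32.9, 22.3 and 16.2 CPM in the neurons and 125, 132, 121 and 80.6 CPM in the precursors and fell by 2.22 (SE 0.12, adjusted p = 1.50e-11). *Id3* fell by 1.16 (SE 0.19, adjusted p = 5.52e-05), *Id4* by 0.82 (adjusted p = 0.000393) and *Tcf3* by 0.99 (SE 0.11, adjusted p = 2.70e-07). *Tcf4* and *Tcf12* were nearly level, at log2 differences of 0.06 (SE 0.08) and 0.12 (SE 0.09). Of 12257 genes 52.7% passed. The score of dividing-cell markers was 3.95 in the precursor cluster and -1.25 and -0.499 in the 2 neuron clusters. Its part in these differences was not tested. The summed astrocyte markers were at 1108 to 1676 CPM in precursors and 488 to 863 CPM in neurons, and their part in the falls of *Id1* and *Id3* was not tested. Without the cells of highest Scrublet score, *Id3* fell by 2.93.

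In the vasculature, endothelial cells had more *Id1*, *Tcf3* and *Tcf4* than mural cells. *Id1* was at 614, 308, 626 and 321 CPM in endothelial cells and 95.6, 43.5, 89.6 and 49.1 CPM in mural cells and rose by 2.73 (SE 0.13, adjusted p = 1.30e-08), with 2.67 to 2.79 in the 4 libraries. *Tcf3* rose by 1.24 (SE 0.18, adjusted p = 0.000118), *Tcf4* by 0.54 (adjusted p = 0.00274), *Id2* by 0.99 (adjusted p = 0.0253, higher in 3 of 4 libraries) and *Id3* by 0.43 (adjusted p = 0.0161). The *Id2* call was lost without mutant replicate 1 (0.55) or mutant replicate 2 (1.05), and the *Id3* call without mutant replicate 2 (0.33). *Id4*, at 27.3 ± 5.87 CPM in mural cells, was lower in endothelial cells, where its counts were at or near 0. *Tcf12* did not pass (-0.27, adjusted p = 0.174). Of 10199 genes 41.3% passed. Control replicate 1 held 10 endothelial cells. The score of dividing-cell markers was 1.4 in the endothelial cluster and 2.83 and 2.74 in the mural clusters, and its part was not tested.

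**Figure D3:**
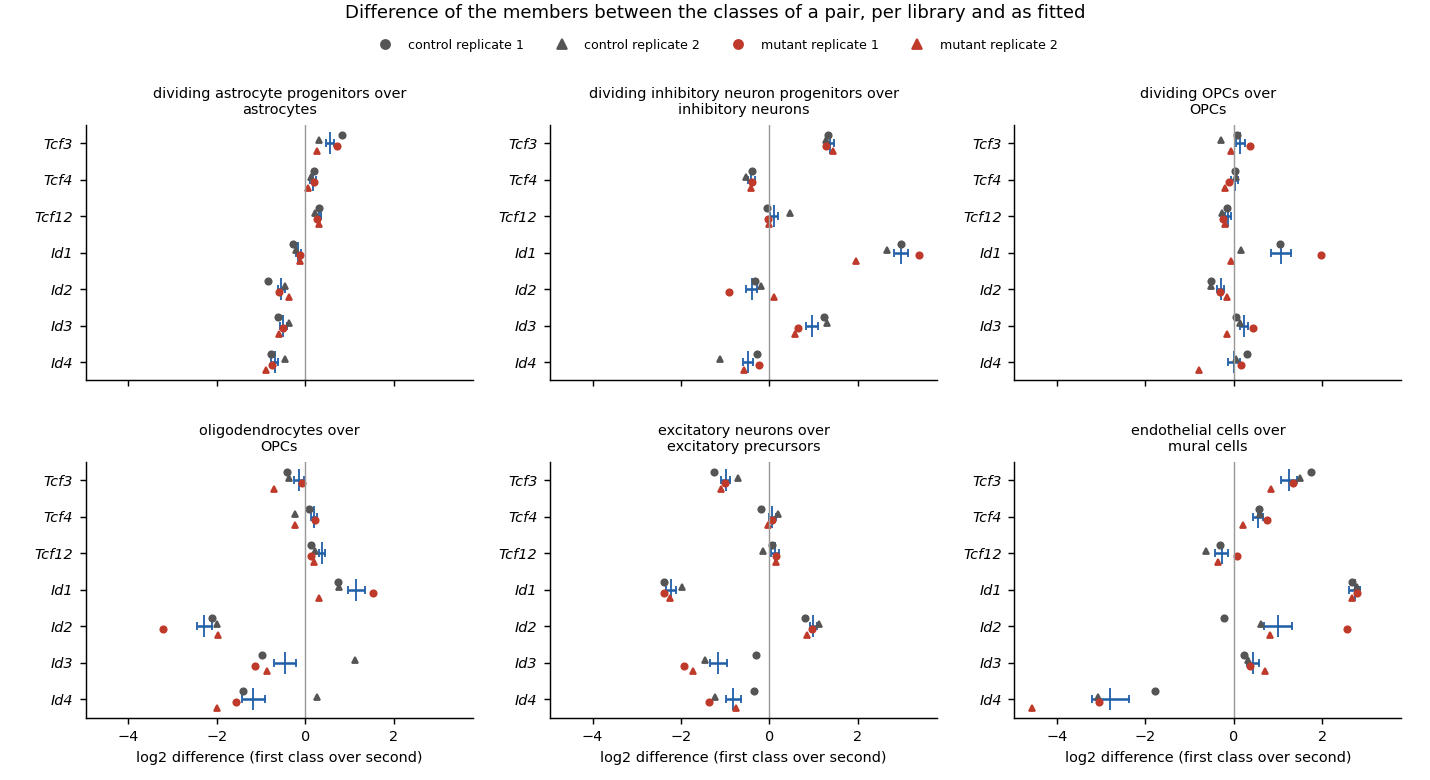
Log2 differences of the 7 members in 6 comparisons of classes, with a point for each library and bars for the edgeR estimate ± SE. *Id1* is higher in dividing inhibitory neuron progenitors (2.97) and endothelial cells (2.73) and lower in excitatory neurons (-2.22), and *Id2* is lower in oligodendrocytes (-2.28).

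The difference between a dividing class and its resting counterpart was compared between lineages by a test of the difference of differences. In the inhibitory lineage the counterpart was neurons, so division and differentiation cannot be told apart there. In the astrocyte lineage the differences of *Id1* and *Id3* were -0.15 and -0.49. The inhibitory lineage had a higher difference than the astrocyte lineage for *Id1* (3.35, SE 0.19, adjusted p = 2.31e-11), *Id3* (1.67, SE 0.16, adjusted p = 4.44e-08) and *Tcf3* (1.004, SE 0.13, adjusted p = 1.79e-06). *Tcf4* differed in the opposite sense (-0.39, adjusted p = 0.00426), *Id4* differed by 0.43 (adjusted p = 0.0286), and *Id2* and *Tcf12* did not pass. The median over all genes was 0.13 with TMM scaling and -0.07 with library totals alone, so the values are best read relative to it, as 3.22 for *Id1*, 1.54 for *Id3*, 0.87 for *Tcf3*, -0.52 for *Tcf4* and 0.30 for *Id4*. The *Id4* call was lost with library totals alone (0.22, adjusted p = 0.243) and without control replicate 1 (0.22), mutant replicate 1 (0.18) or mutant replicate 2 (0.23). For the OPC lineage against the astrocyte lineage, *Id1* (1.35, adjusted p = 0.000628), *Id3* (0.82, adjusted p = 0.000101), *Id4* (0.80, adjusted p = 0.00452) and *Tcf12* (-0.34, adjusted p = 0.00849) passed, beside a median of 0.06, and this *Id4* call was lost without control replicate 1 (0.64) or mutant replicate 1 (0.67). The shares of all genes that passed were 43.5% and 20.7%, with 65.4% and 61.7% of the calls positive under TMM and 47.2% and 34.9% with library totals alone. In clusters of a resolution of 2, *Id1* and *Id3* in dividing OPCs against OPCs reversed sign, as did *Id3* in dividing inhibitory neuron progenitors against neurons. The difference of differences was not tested in those clusters. The *Id1* gain of dividing OPCs lay in the libraries of replicate 1. Both tests use the same astrocyte libraries, so they are not independent of each other. The dividing inhibitory neuron progenitors and the inhibitory neurons were each taken as a whole class. The progenitor clusters had unlike *Id1*, *Id3* and *Id4* levels, and the neuron clusters had unlike *Tcf4*, *Id2* and *Id4* levels.

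The bHLH partners and the BMP pathway were taken from lists of 74 genes. The partners were left out of the clustering. Neuronal *Neurod1* was highest in excitatory neurons (1194 CPM), as were *Neurod2* and *Bhlhe22*, *Neurod4* and *Neurog2* were highest in excitatory precursors, and *Olig1*, an oligodendrocyte lineage factor, was highest in OPCs (1411 CPM). In dividing inhibitory neuron progenitors against neurons, *Olig2* (log2 difference 3.16) and *Olig1* (2.80) rose and *Nhlh2* fell by 1.72. In dividing astrocyte progenitors against astrocytes, *Olig2* (0.48) rose and *Atoh8* fell by 0.77. In excitatory neurons against precursors, *Neurod2* rose by 2.94 and *Bhlhe22* by 1.996, while *Neurod4* fell by 3.43 and *Neurog2* by 2.66. In oligodendrocytes against OPCs, *Olig1* fell by 1.23 and *Olig2* fell by 0.40. In endothelial against mural cells, the blood and vessel factors *Tal1* (4.40) and *Lyl1* (4.07) rose and the mesenchymal *Twist1* fell by 4.63. The percentages of all genes that passed, given above for each comparison, are the background of these calls.

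BMP genes could enter the clustering, so their differences between classes are given as a description. Of 8 tested BMP antagonists, all 8 were lower in oligodendrocytes than in OPCs, as were 29.8% of all genes (median log2 difference -1.73, against -0.04 over all genes), including *Sostdc1* (-2.96), *Bmper* (-2.89) and *Nog* (-1.44). *Bmp4* was higher in oligodendrocytes by 5.97, reaching 504 CPM, while *Bmp7* (-3.99) was lower. Endothelial cells had 5 of 7 BMP receptors and 4 of 5 tested SMADs higher than mural cells, beside 17.8% of all genes, among them the endothelial receptors *Acvrl1* (2.86) and *Eng* (2.32), with *Bmpr1a* lower (-4.21). Astrocytes had more *Bmpr1b* and *Smad9* than their dividing progenitors (-0.71 and -1.13), and *Bmpr1b* was higher in dividing inhibitory neuron progenitors than in neurons (2.51). Of the ETO-family corepressors, which bind E proteins, *Runx1t1* was lower in dividing inhibitory neuron progenitors (-3.58) and oligodendrocytes (-2.05) and higher in excitatory neurons (2.95).

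Finally, mutant and control libraries were compared in the 13 classes with at least 20 cells in every library. With the library as the unit and no replicate block, no member passed the test between genotypes in any class. The study lists *Tcf4* among the genes that differed between genotypes in its OPC cluster. Its rank-sum test took cells as the unit, so the 2 results are not alike in measure. Of 91 pairs of a member and a class, 90 could be tested and 0 passed in edgeR (lowest adjusted p = 0.9998), with 1 of 90 at an unadjusted p under 0.05, and 0 passed in DESeq2. Over all genes and classes 0% of 153787 edgeR tests passed, 248 (0.161%) had an unadjusted p under 0.05, and DESeq2 called 2. That share is far under what a threshold of 0.05 gives when nothing differs. The fit without a block was thus conservative, and its lack of calls does not show that the genotypes are alike. With the replicate block, 3.70% of the edgeR tests had an unadjusted p under 0.05. With the replicate as a block, which takes out what differs between replicates, the software version and the *Xist* level included, 2 pairs passed, both of *Id3*, against 0.0956% of all tests. The median log2 difference of mutant over control over the classes was 0.24 for *Tcf3*, 0.14 for *Tcf4*, -0.01 for *Tcf12*, -0.05 for *Id1*, 0.10 for *Id2*, -0.17 for *Id3* and -0.05 for *Id4*, beside a median of 0.00194 over all tests.

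Among the 7 members, *Tcf3* had the most regular small difference. It was higher in the mutant within both replicates in 9 of 13 classes and lower within both in 0, and both mutant libraries lay above both controls in 7 classes. Over all cells it was at 68.4 and 56.2 CPM in control replicates 1 and 2 and at 69.4 and 76.1 CPM in mutant replicates 1 and 2, so that the mutant lay above the control by 0.02 in replicate 1 and 0.43 in replicate 2 on the log2 scale. The lowest unadjusted p of *Tcf3* in any class was 0.177. Over all members, the groups did not overlap in 21 of 90 pairs, where 15.6% of all tests had no overlap, and the classes share libraries, so their agreement is not that of independent samples. *Tcf4* was higher within both replicates in 8 of 13 classes, but both mutant libraries lay above both controls in 1. How often other genes keep the same sign within both replicates was not counted. The numbers of classes for *Tcf3* and *Tcf4* thus have no background and describe these members only.

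**Figure D4:**
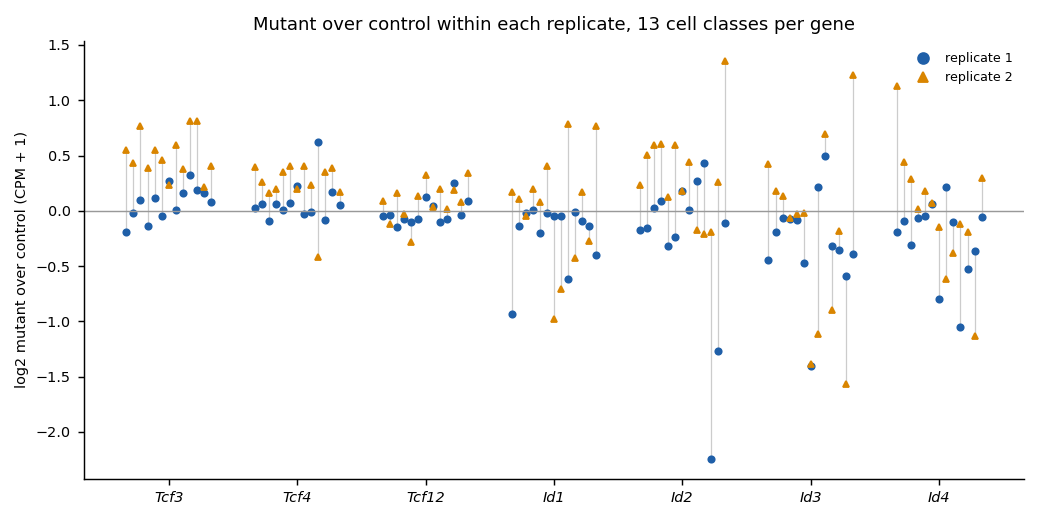
Log2 difference of mutant over control within replicate 1 (blue circles) and replicate 2 (orange triangles) for each member, with a point for each of 13 classes. *Tcf3* lies above 0 in both replicates in 9 classes, and *Id3* reaches -1.41 and -1.57 at its lowest.

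*Id3*, an astrocyte-enriched member, had its widest gaps between genotypes in excitatory neurons and oligodendrocytes, classes where its level was low. In excitatory neurons it was at 124 and 59.4 CPM in control replicates 1 and 2 and at 46.1 and 22.0 CPM in mutant replicates 1 and 2, which did not overlap. The log2 difference was -1.41 (SE 0.56, adjusted p = 1) in edgeR without a block and -1.41 (SE 0.22, adjusted p = 3.09e-07) with the replicate block. In oligodendrocytes it was at 63.8 and 108 CPM in control and 41.9 and 35.7 CPM in mutant replicates 1 and 2, and the log2 difference was -1.08 (adjusted p = 0.9998) without and -0.93 (SE 0.21, adjusted p = 0.00406) with the block. With the block, 0.211% of 11364 genes in excitatory neurons and 0.308% of 10722 genes in oligodendrocytes were called lower. Leaving out 1 library at a time without a block gave -2.05 to -0.77 in excitatory neurons and -1.43 to -0.65 in oligodendrocytes.

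These differences rested on few cells. In control replicate 1, 24 of the excitatory neurons (5.73%), those with the highest Scrublet scores, held 468 of 513 *Id3* UMIs (91.2%), and their summed astrocyte markers were at 3703 CPM against 323 CPM in the rest. Without such cells *Id3* in excitatory neurons was at 12.2 and 19.2 CPM in control and 15.7 and 21.6 CPM in mutant replicates 1 and 2, and the log2 difference was 0.24. In oligodendrocytes of control replicate 2, 1 cell held 56 of 88 *Id3* UMIs (63.6%). Without the cells of highest score the 4 oligodendrocyte values were 40.2, 40.8, 37.1 and 35.9 CPM, with a log2 difference of -0.12. The summed astrocyte markers over all cells did not follow the genotype in excitatory neurons (697 and 696 CPM in control, 863 and 488 CPM in mutant) and were higher in control oligodendrocytes (353 and 428 CPM) than in mutant ones (129 and 157 CPM).

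**Figure D5:**
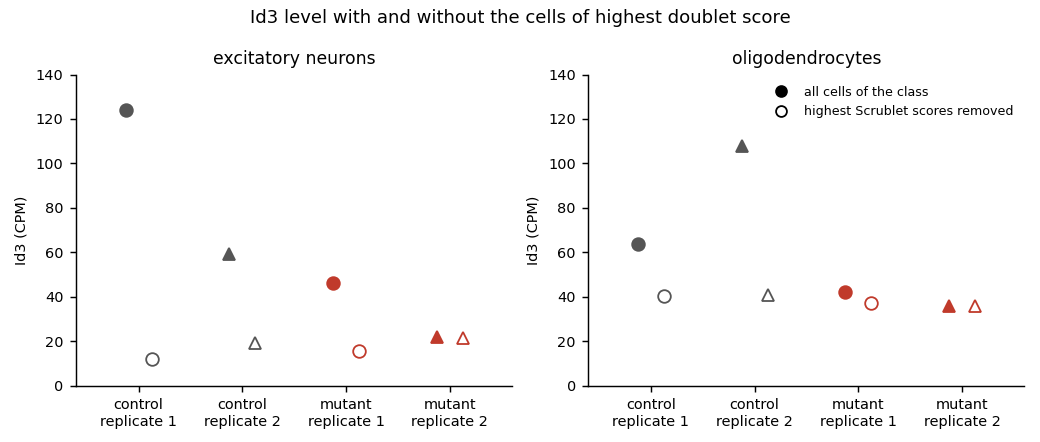
*Id3* CPM per library in excitatory neurons and oligodendrocytes over all cells (filled) and without the 5% of cells with the highest Scrublet scores (open). Control values fall from 124 and 59.4 to 12.2 and 19.2 CPM in excitatory neurons, and all 4 oligodendrocyte values then lie between 35.9 and 40.8 CPM.

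Among the bHLH partners, BMP genes and ETO-family corepressors, 348 pairs of a gene and a class were tested for genotype and 0 passed without a block. With the replicate block 3 passed, beside 0.0956% of all tests. *Bmpr1b*, which was highest in astrocytes (250 CPM), was at 79.0 and 7.31 CPM in control and 36.5 and 1.47 CPM in mutant excitatory neurons of replicates 1 and 2 (-1.16 with the block, edgeR adjusted p = 0.0142). It was at -1.14 without a block, at -1.75 when the cells of highest Scrublet score were also left out, and at 1.30 without control replicate 1. *Runx1t1* in the same class was at 219 and 5.48 CPM in control and 66.3 and 16.9 CPM in mutant replicates 1 and 2, so that the replicates went opposite ways (-1.17 with the block, adjusted p = 0.000885; 2.71 without control replicate 1 and no block). *Olig1* in subventricular stem-like cells was at 54.1 and 103 CPM in control and 73.9 and 209 CPM in mutant replicates 1 and 2 (0.71 with the block, adjusted p = 0.0389), and at -0.05 without mutant replicate 2 and no block.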

How the data were processed

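Cells were sorted tdTomato-positive forebrain cells of 2 control and 2 mutant libraries, grouped by their titles. The authors mapped reads to mm10 with Cell Ranger and deposited, per library, raw UMI counts per gene and barcode. The submitters' notes name version 3.0 and the file headers 7.0.0 (replicate 1) and 5.0.1 (replicate 2). Gene positions were from GENCODE M21.

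Barcodes were kept between 2000 and 40000 UMIs where 1000 genes or more were detected and the mitochondrial share did not exceed 10%. Genes were centred and scaled within libraries, and cells clustered with scanpy 1.11.5 (Python 3.11.15, leidenalg 0.10.2; 2000 variable genes, 30 components, 15 neighbours, resolution 1) without the members and their bHLH partners. The naming rule (best mean marker score of at least 2, at least 3 markers detected, dividing score of at least 2.5) was set after the cells were examined. Only the astrocyte, inhibitory neuron and OPC lineages could take a dividing name. Excitatory precursors and mural cells passed that dividing score but kept their plain names. Doublets were scored with Scrublet and none were removed in the main analysis. Counts were summed per class and library and tested in R 4.3.3 with edgeR 4.0.16 (filterByExpr, TMM, quasi-likelihood, prior count 2), for genotype with at least 20 cells in every library, and between classes with at least 10 cells and the library as a block, at an adjusted p of 0.05. DESeq2 1.42.0 was an alternative, and the fits were tested on simulated data. Where genotype log2 differences with the replicate block are given, the number marks a shared software version and *Xist* level, and the replicate differences of control and mutant correlated over 14484 genes (r = 0.914).

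The members and lists were chosen with earlier results of these data known. Named genes were the members, *Chd8*, the partner, BMP and ETO lists, and the 3 genes most like each member over the classes. Some genes of these lists are not reported here. Genes that lead a cluster, *Aldoc*, *Cldn5*, *Slc1a3*, *Apoe*, *Xist* and the clusters singled out were named after values were seen. The interaction test and the cell-level account of *Id3* were added after seeing the data. Intervals on shares and floors cover counting error only.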

Additional observations from a re-analysis of the deposited data

Results flagged for a closer look

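The change of a member between dividing and resting cells differed between lineages in 9 tests (edgeR quasi-likelihood, adjusted over all genes, a test chosen after seeing the data). For the inhibitory lineage minus the astrocyte lineage, the log2 difference of differences was 1.004 for *Tcf3*, -0.39 for *Tcf4*, 3.35 for *Id1*, 1.67 for *Id3* and 0.43 for *Id4*. For the OPC lineage minus the astrocyte lineage it was -0.34 for *Tcf12*, 1.35 for *Id1*, 0.82 for *Id3* and 0.80 for *Id4*. In the inhibitory lineage the resting class was neurons, so division and differentiation cannot be told apart there. Both sets use the same astrocyte libraries. They were not tested in clusters of a resolution of 2. There *Id1* and *Id3* in dividing OPCs and *Id3* in dividing inhibitory neuron progenitors reversed sign against their resting classes. The *Id4* difference of the inhibitory lineage missed the threshold with at least 10 counts in every library (0.26) and without scaling (0.22).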

How the results depend on the processing

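The comparisons rest on 4 libraries, 2 per genotype. Those of *Id1* also rest on low counts in some classes, such as OPCs (12.8 CPM), oligodendrocytes (22.8 CPM) and inhibitory neurons (11.4 CPM). Without the library block, the members past the threshold were 2 for dividing astrocyte progenitors, 0 for dividing OPCs, 2 for oligodendrocytes and 3 for endothelial cells, and 16 calls were lost in all, the most of any setting. Without centring within libraries, dividing OPCs had 1. With the replicate block 2 genotype pairs passed, both of *Id3*, and no other member's call changed. Without thinning, 4 of 7 members kept the class with the highest share. When 1 library was left out, 6 or 7 members kept their highest class, 0 genotype pairs passed, and 2, 3 or 5 calls between classes were lost. No value could be computed, for want of cells, for endothelial against mural cells with the mitochondrial limit of 5% or without the highest Scrublet scores, and without centring for excitatory neurons against precursors and oligodendrocytes against OPCs.

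Signs reversed as follows, and the causes were not tested. *Id3* in mutant excitatory neurons was 0.24 without the highest Scrublet scores. At a resolution of 2, *Id3* in dividing inhibitory neuron progenitors was -0.13, *Tcf12* in excitatory neurons -0.42, and in dividing OPCs *Id1* -0.11, *Id3* -0.54 and *Id4* -0.49. Without centring, *Tcf12* in dividing inhibitory neuron progenitors was -0.12, and in dividing OPCs *Id3* was -0.27 and *Id4* -0.035. Without scaling, *Tcf4* was -0.058 in dividing OPCs and -0.033 in oligodendrocytes, and *Id4* -0.074 in dividing OPCs. In dividing OPCs, *Tcf4* and *Id4* were -0.022 and -0.036 with DESeq2, -0.012 and -0.029 with at least 10 counts, and -0.0049 and -0.020 with no filter, and *Id4* was -0.026 without the library block and -0.31 without the highest Scrublet scores. Leaving out 1 library gave ranges that crossed 0 for *Tcf12* in dividing inhibitory neuron progenitors (-0.013 to 0.13), for *Tcf3* (-0.010 to 0.21), *Tcf4* (-0.030 to 0.058) and *Id4* (-0.16 to 0.27) in dividing OPCs, and for *Tcf4* in excitatory neurons (-0.0046 to 0.13). None of the differences whose range crossed 0 was called in the full data.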

Other observations

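Unnamed clusters also carried high levels of members and are given as values. The 612 unnamed cells led by *Dll1* and *Egfr*, genes known from transit-amplifying progenitors, had *Tcf3* at 114, 85.7, 116 and 111 CPM and *Id1* at 198, 187, 162 and 128 CPM in control replicates 1 and 2 and mutant replicates 1 and 2. The 121 unnamed cells led by *Frzb*, *Gdf10* and *Tfap2c* had *Tcf4* at 3476 CPM together with *Id1* at 706, *Id3* at 1536 and *Id4* at 518 CPM over all their cells. The ependymal cluster led by *Cdc20b*, *Deup1* and *Mcidas*, genes known from cells that are building cilia, had *Id4* at 304 CPM in 352 cells, and the other ependymal cluster had 537 CPM in 562 cells.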
